A study of Homo sapiens with 4 samples.

Results

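The 6 genes of the human GATA factor family, GATA1 to GATA6, were examined for binding of 1 of their own products, GATA3, among 20033 protein-coding genes. Cells of the established human embryonic stem cell (hESC) line H1, which are pluripotent, were grown in mTeSR1 medium and given BMP4 at 50 ng/ml for 6 h. Chromatin was then recovered with a GATA3 antibody and sequenced (ChIP-seq). The labels give 4 samples, all treated with BMP4, of which 2 were GATA3 ChIP replicates and 2 were input chromatin. A list of peak positions of each ChIP replicate was analysed. Input entered only through the authors' peak calling, and no GATA3 ChIP from untreated cells was analysed here, so every value describes the treated state and none shows an effect of BMP4.

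GATA factors are zinc finger proteins that bind the hexamer WGATAR, where W is A or T and R is A or G. GATA1, GATA2 and GATA3 are best known from blood cells, and GATA2 and GATA3 also act in trophectoderm and trophoblast. GATA4, GATA5 and GATA6 are best known from heart and endoderm. GATA genes are known to be controlled in part by GATA factors, through autoregulation and through replacement of 1 family member by another at the same elements. The question put to the data was where GATA3 sat at its own gene and at the genes of its 5 paralogues.

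A position was assigned to a GATA gene when it lay within 100 kb of the 5′ end of the gene in GENCODE release 44 (hg38) or inside the gene body. Replicate 1 had 22 such positions of 18456 on the chromosomes, and replicate 2 had 18 of 12782. No further position was added by the gene name that the authors had attached to it. Replicate positions no more than 100 bp apart were joined into a shared region, centred on their mean. The 6 genes held 18 of the 9145 shared regions of the genome. The files hold 1 position per peak and no height, width or q-value, so the number and the place of peaks could be compared but not their strength.

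Shared GATA3 regions were found at 3 of the 6 genes, with 9 at GATA2, 6 at GATA3 and 3 at GATA6. No shared region lay at GATA1, GATA4 or GATA5. Among all protein-coding genes, 47.5% had at least 1 shared region by the same rule, so the 3 of 6 is close to the background. The number of regions per gene ranked higher at GATA2 and GATA3. The mean over all genes was 0.741 shared regions, the median was 0 and the highest value was 13. As many regions as GATA2 or more were counted at 18 genes (0.0899%), as many as GATA3 at 78 genes (0.389%) and as many as GATA6 at 1161 genes (5.80%). Long genes collect regions in their bodies. Among the 16366 genes shorter than 100 kb, the corresponding shares were 0.0244%, 0.0978% and 4.03%. With all positions of a single replicate in place of shared regions, the ranks were less extreme. In replicate 1 alone the shares were 0.579% for GATA2, 1.47% for GATA3 and 20.3% for GATA6. In replicate 2 alone they were 0.235%, 1.01% and 11.2%. These are ranks in 1 list of genes and carry no test.

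**Figure D1:**
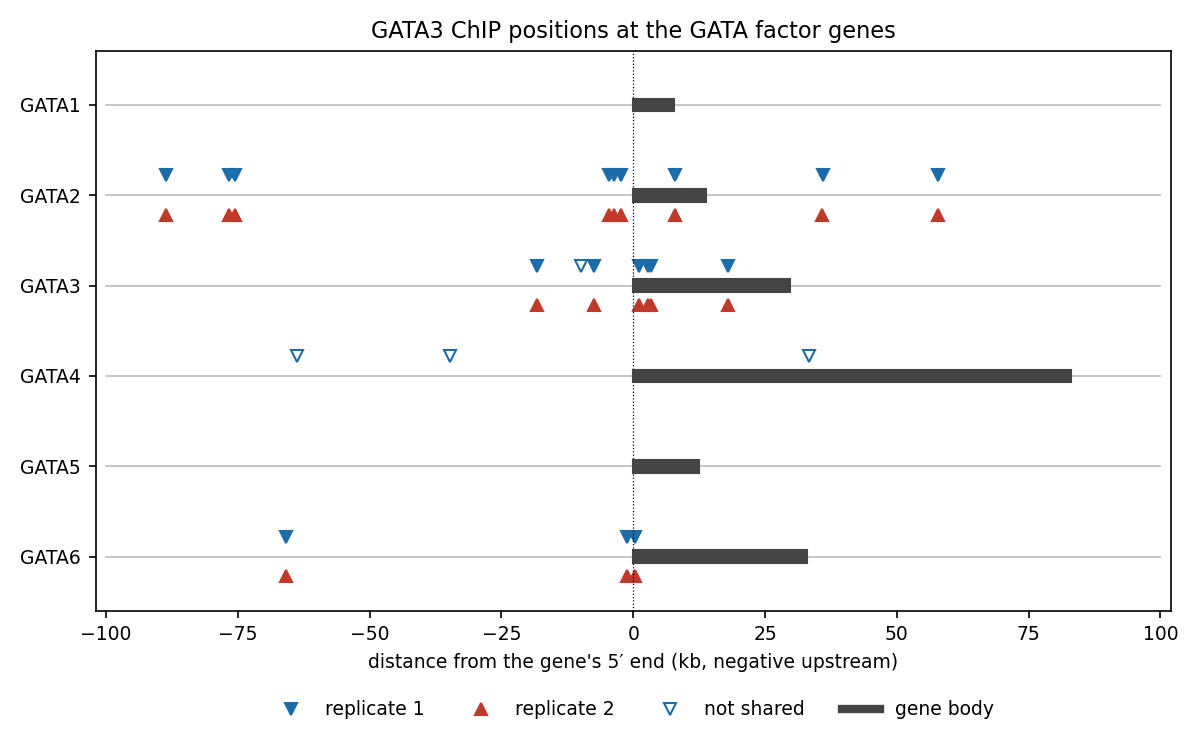
Positions of GATA3 ChIP peaks around the 5′ end of each GATA factor gene, in kb along the gene with negative values upstream; triangles pointing down are replicate 1, triangles pointing up are replicate 2, open symbols are positions with no partner within 100 bp, and dark bars are gene bodies. GATA2, GATA3 and GATA6 carried paired positions in both replicates, GATA4 had 3 unpaired positions of replicate 1, and GATA1 and GATA5 had none.

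The self-locus came first. GATA3 is a regulator of T helper cell and trophoblast development, and its gene lies at chr10:8045378-8075198 on the plus strand. Replicate 1 had 7 positions there and replicate 2 had 6, and all 6 of replicate 2 were matched. The 5′ end of the annotated gene is the start of an extended transcript. The canonical transcript starts further downstream, at position 8054688, and both distances are given because most of the regions lie between or before these starts. The sequences of all 6 shared regions are shown because they are where GATA3 met its own gene. Each is the plus strand of hg38 from 80 bases before to 80 bases after the region centre, with WGATAR matches on either strand in capitals, so that TTATCT reads AGATAA on the minus strand.
GATA3 region 1, chr10:8026997-8027157: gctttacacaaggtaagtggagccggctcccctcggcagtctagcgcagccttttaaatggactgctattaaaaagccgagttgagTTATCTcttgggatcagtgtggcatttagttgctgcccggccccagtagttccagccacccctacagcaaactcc
GATA3 region 2, chr10:8037913-8038073: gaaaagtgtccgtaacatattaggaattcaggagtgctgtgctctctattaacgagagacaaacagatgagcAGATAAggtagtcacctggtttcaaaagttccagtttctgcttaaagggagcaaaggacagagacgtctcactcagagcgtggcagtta
GATA3 region 3, chr10:8046436-8046596: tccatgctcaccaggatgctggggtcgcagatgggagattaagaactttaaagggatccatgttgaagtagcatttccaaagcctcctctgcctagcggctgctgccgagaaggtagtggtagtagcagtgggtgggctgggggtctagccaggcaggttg
GATA3 region 4, chr10:8048110-8048270: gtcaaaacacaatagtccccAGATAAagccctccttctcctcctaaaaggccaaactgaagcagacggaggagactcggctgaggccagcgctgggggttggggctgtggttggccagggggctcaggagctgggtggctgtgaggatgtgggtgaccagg
GATA3 region 5, chr10:8048715-8048875: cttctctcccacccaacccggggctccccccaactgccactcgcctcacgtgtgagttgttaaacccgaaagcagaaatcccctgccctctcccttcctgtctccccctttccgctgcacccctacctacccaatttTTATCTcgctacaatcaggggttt
GATA3 region 6, chr10:8063352-8063512: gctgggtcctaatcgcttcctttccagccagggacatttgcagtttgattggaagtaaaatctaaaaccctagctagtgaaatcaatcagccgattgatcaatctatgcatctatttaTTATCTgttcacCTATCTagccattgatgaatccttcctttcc

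Region 1 of GATA3 was the farthest upstream. Its positions were 8027055 in replicate 1 and 8027099 in replicate 2, 18.3 kb before the 5′ end of the gene and 27.6 kb before the canonical start. Region 2, at 8038009 and 8037978, lay 7.38 kb before the 5′ end and 16.7 kb before the canonical start. Both regions are intergenic, and each holds 1 AGATAA close to the centre, at 8.5 bp in region 1 and 6 bp in region 2. Between them lay the only GATA3 position without a partner, at 8035551 in replicate 1, which had its closest counterpart of replicate 2 at a distance of 2427 bp and had 1 WGATAR within its 200 bp window.

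Regions 3, 4 and 5 of GATA3 formed a cluster in the first intron of the extended transcript. The positions of region 3 were 8046508 and 8046525, those of region 4 were 8048195 and 8048186, and those of region 5 were 8048771.5 and 8048820, where the decimal is a position that the authors' file places between 2 bases. Counted from the canonical start, regions 3, 4 and 5 lay 8.17, 6.50 and 5.89 kb upstream, in the 5′ flank of the transcript. Regions 4 and 5 were the closest neighbours at any of these loci, with 605 bp between their centres. Region 3 holds no WGATAR and no plain GATA in its 200 bp window, and the nearest WGATAR was an AGATAA 515 bp from its centre. In regions 4 and 5 the single AGATAA lies farther out, 58 and 58.75 bp from the centre.

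Region 6 of GATA3, at 8063413 and 8063451, lay inside the gene, in intron 3 of the canonical transcript, 8.74 kb after the canonical start. It holds AGATAA and AGATAG on the same strand, with 12 bp between their first bases. The authors' lists attach the name GATA3 to this region alone. Their name for regions 1 to 5 is RP11-379F12.4, so a search by gene name would have returned 1 of the 6 shared regions of the self-locus. No other protein-coding gene starts within 100 kb of GATA3, and the nearest such start was that of TAF3, a general transcription factor subunit, at 227 kb.

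GATA2 had the most shared regions of the family within 100 kb, whereas within 25 and 50 kb GATA3 had more, with 6 against 4 and 5. Its product maintains blood stem and progenitor cells and acts beside GATA3 in trophoblast. The gene lies at chr3:128479427-128493201 on the minus strand. Replicates 1 and 2 had 9 positions each, and all 9 were matched, so that no position at this gene was particular to a replicate. The regions fall in 3 places, a distal upstream group of 3, a group of 4 on both sides of the start, and 2 downstream of the gene. The 4 regions near the start are shown because they compare directly with the cluster at GATA3. They are on the plus strand, so that the gene reads from right to left.
GATA2 region 4, chr3:128497689-128497849: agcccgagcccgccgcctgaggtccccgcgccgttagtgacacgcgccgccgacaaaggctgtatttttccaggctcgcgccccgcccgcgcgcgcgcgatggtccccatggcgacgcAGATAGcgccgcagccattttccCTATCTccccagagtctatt
GATA2 region 5, chr3:128496705-128496865: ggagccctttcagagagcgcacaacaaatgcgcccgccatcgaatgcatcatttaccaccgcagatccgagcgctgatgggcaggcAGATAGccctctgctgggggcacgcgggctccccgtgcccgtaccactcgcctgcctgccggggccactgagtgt
GATA2 region 6, chr3:128495493-128495653: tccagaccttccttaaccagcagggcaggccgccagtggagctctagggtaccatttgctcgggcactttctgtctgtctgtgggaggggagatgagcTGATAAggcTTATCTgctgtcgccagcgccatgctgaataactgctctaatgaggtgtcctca
GATA2 region 7, chr3:128485152-128485312: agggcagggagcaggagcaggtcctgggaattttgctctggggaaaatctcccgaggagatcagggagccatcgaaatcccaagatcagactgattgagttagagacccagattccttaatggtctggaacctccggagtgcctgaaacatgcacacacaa

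Regions 4, 5 and 6 of GATA2 lay upstream, in introns of GATA2-AS1, a noncoding gene that starts inside GATA2 and is transcribed in the opposite direction. The positions of region 4 were 128497772 and 128497766, 4.57 kb before the 5′ end. Those of region 5 were 128496784 and 128496787, 3.58 kb before it, and this centre falls in exon 3 of another GATA2-AS1 transcript. Those of region 6 were 128495564 and 128495582, 2.37 kb before it. Region 4 holds a pair of AGATAG on opposite strands, 23 bp apart, and region 5 holds 1 AGATAG. Region 6 holds TGATAA and AGATAA facing each other on opposite strands, 9 bp apart. The same window has 3 matches to GTCTG, a SMAD binding element counted on both strands. Some of these matches overlap. At least 1 match was found in 36.1% of all shared regions, and the share with 3 was not counted.

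Region 7 was the only shared region inside the GATA2 gene. Its positions were 128485244 and 128485221, 7.97 kb after the 5′ end, in intron 3 of the canonical transcript. It holds no WGATAR and no plain GATA, and the nearest WGATAR lay 609 bp away. It holds 3 GTCTG. Of all shared regions, 36.1% hold at least 1, and the share that holds 3 was not counted. GATA2 has a conserved intronic enhancer, studied in blood and vascular endothelium, whose mark is an E-box followed by a GATA site, CATCTG with 8 bases before WGATAR. A search of the locus for that arrangement found a single match, on the strand of the gene and in a GATA2 intron 9.88 kb after the 5′ end. It is printed on the minus strand with the E-box and the GATA site in capitals.
GATA2 E-box GATA composite, chr3:128483311-128483330: CATCTGcagcctgaAGATAA

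The intronic match was not among the GATA3 positions. It lay 1924 bp from the nearest position of replicate 1 and 1901 bp from that of replicate 2, both of them in region 7. The arrangement occurred in 8 of the 9145 shared regions (0.0875%) and in 0 of the 18 regions of the GATA genes. It was also found 2 times at GATA1 and 1 time at GATA5, where no position lay nearby, and not at GATA3, GATA4 or GATA6. A spacing shorter by 1 base, CATCTG with 8 bases before the letters GATA, was in 11 shared regions (0.120%) and again in 0 of 18, with an exact 95% upper limit of 18.5%. In the loci this shorter form, which was the one planned, occurred 2 times at GATA2, 1 time at GATA1 and 1 time at GATA4. It was not found at GATA3, GATA5 or GATA6.

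The distal regions of GATA2 are intergenic. Regions 1, 2 and 3 lay 88.6, 76.7 and 75.6 kb upstream, with positions 128581830 and 128581838, 128569890 and 128569896, and 128568801 and 128568777. The authors' name for all of these is LINC01565, whose start was nearer, at 5.75, 6.19 and 7.30 kb. The nearest protein-coding start was that of GATA2. Region 1 holds 3 WGATAR, of which AGATAA and AGATAG on the same strand are 10 bp apart. Region 2 holds 1 AGATAA. Region 3 holds none, and the nearest lay 206 bp from its centre. Regions 8 and 9 lay 35.9 and 57.8 kb downstream of the 5′ end, with positions 128457263 and 128457328, and 128435402 and 128435362. Each holds 1 AGATAA. The protein-coding start nearest to both is that of DNAJB8, a chaperone gene 26.2 kb from GATA2, at 9.67 and 31.6 kb, so their place within 100 kb of GATA2 does not tie them to that gene. Beyond 100 kb, shared regions continued upstream of GATA2 at 125, 183 and 228 kb. The nearest protein-coding gene was RPN1 for those at 125 and 183 kb and RAB7A for that at 228 kb. Their distance from GATA2 does not tie them to that gene either. Distances are along the human genome and cannot be carried over to enhancers that are named by their distance in the mouse.

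GATA6 directs endoderm and heart development, and its gene lies at chr18:22169589-22202528 on the plus strand. Each replicate had 3 positions and all were matched. A pair of the regions stood on either side of the start, and these are shown because they were the shared regions nearest to the start of any family member.
GATA6 region 2, chr18:22168389-22168549: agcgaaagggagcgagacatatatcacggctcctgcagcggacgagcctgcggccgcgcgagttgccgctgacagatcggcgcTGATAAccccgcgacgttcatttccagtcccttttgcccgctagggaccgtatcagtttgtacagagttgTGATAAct
GATA6 region 3, chr18:22169860-22170020: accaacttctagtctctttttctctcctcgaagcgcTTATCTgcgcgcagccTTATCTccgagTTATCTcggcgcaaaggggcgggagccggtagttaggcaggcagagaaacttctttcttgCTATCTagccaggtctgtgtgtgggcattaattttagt

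Region 3 of GATA6, at 22169921 and 22169959, lay in the first intron, 0.351 kb after the 5′ end. It holds 4 WGATAR, the most of the 18 regions, with 3 AGATAA and 1 AGATAG, all on the strand opposite to the gene. The 3 AGATAA follow each other at 16 and 11 bp. Among all shared regions, 2.03% hold 4 or more WGATAR. The start of GATA6-AS1, a noncoding gene transcribed in the opposite direction, was 0.062 kb from the centre of this region. Region 2, at 22168460 and 22168479, lay 1.12 kb upstream in the first exon of GATA6-AS1 transcripts. It holds TGATAA 2 times on the same strand, 70 bp apart, with the nearer 5 bp from the centre. Region 1, at 22103746 and 22103753, was intergenic and 65.8 kb upstream. It holds 3 WGATAR, with AGATAA and TGATAG 8 bp apart on the same strand. The nearest other protein-coding start, that of CTAGE1, was 248 kb from GATA6.

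GATA4, a heart and endoderm factor like GATA6, had positions in replicate 1 alone. The gene lies at chr8:11676959-11760002 on the plus strand. Replicate 1 had 3 positions and replicate 2 had none. The position at 11613189 was intergenic and 63.8 kb upstream. That at 11642164, 34.8 kb upstream, lay in an intron of a noncoding gene. That at 11710265 lay in intron 2 of the canonical transcript, 33.3 kb after the 5′ end of the gene and 6.06 kb after the canonical start. Only the last has a WGATAR in its 200 bp window. The nearest position of replicate 2 was 93.0 kb from the intronic position, and the nearest shared region was 521 kb from the 5′ end. Replicate 1 lists 1.44 times as many positions as replicate 2 over the chromosomes. The lengths of the deposited lists are not the peak numbers that the study's methods give for the replicates, and how the lists were drawn up is not stated. Whether depth or the making of the lists sets the difference at GATA4 was not tested.

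GATA1, the factor of red cell and megakaryocyte development, lies at chrX:48786540-48794311 on the plus strand and had no position in either replicate. The nearest shared region was 256 kb from its 5′ end. GATA5, a factor of endoderm and heart valve development, lies at chr20:62463497-62475995 on the minus strand. It had no position in either replicate, and the nearest shared region was 153 kb upstream, at 62628835 and 62628842. The absence of a position from the deposited lists does not show that the gene was unbound.

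The supply of motifs differed less between the loci than the number of regions. WGATAR occurred 432 times in the 200 kb around the GATA3 start (2.16 per kb), 395 times at GATA6 (1.97 per kb), 334 times at GATA1 (1.67 per kb), 324 times at GATA4 (1.62 per kb) and 303 times at GATA2 (1.51 per kb). GATA5 had 148 (0.740 per kb), in a locus with a GC content of 60.2%. GATA2, with 9 shared regions within 100 kb, had fewer motifs than GATA1 and GATA4, which had no shared region. The most motifs were at GATA3 and GATA6, which had shared regions, and the fewest at GATA5, which had none. Whether the number of motifs bears on the number of regions was not tested. None of the 6 genes has a WGATAR in the window from 250 bases before to 50 bases after the canonical start, where 18.4% of all protein-coding genes have at least 1. With 6 genes, a count of 0 cannot be told apart from that share, and the difference was not tested. The GC content of these 6 windows was 66.7% to 79.7%, and no value for all promoters is given here.

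The self-locus and its paralogues were then compared by distance from the 5′ end. Within 5 kb, GATA2 and GATA3 had 3 shared regions each and GATA6 had 2, where the mean of all protein-coding genes was 0.0611. Within 10 kb, GATA2 and GATA3 had 4 each and GATA6 still had 2, where the mean was 0.0933. No other protein-coding gene had 4 within 10 kb, and none had more. Within 5 kb, 3 shared regions were also found at HES1, PRDM1, TFAP2A and TRIML2, and no gene had more. HES1 is a Notch target, and PRDM1 and TFAP2A are developmental transcription factors. Within 25 kb, GATA3 had 6, the highest count of any gene, and EEF1G, GATA2 and TFAP2A followed with 4. HES1, PRDM1, TFAP2A and TRIML2 are named because of these counts, after their values were seen. With the canonical start GATA3 and GATA2 also had 4 each within 10 kb, the highest count, which no other gene reached. At GATA3 these were not the same 4, because region 2 lay 16.7 kb from the canonical start and region 6 lay 8.74 kb from it. By that start GATA3 had 0 within 5 kb and 5 within 25 kb, and another gene had more at 25 kb.

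The order held less firmly in each replicate by itself. In replicate 1, GATA3 had 5 positions within 10 kb, and 5 genes, itself included, had as many or more. GATA2 had 4, and 17 genes had as many or more. In replicate 2 both had 4, and 10 genes had as many or more. With 1 condition and 2 replicates, the difference between GATA2 and GATA3 near the start, 4 against 4, was 0, and no difference among the members was tested.

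**Figure D2:**
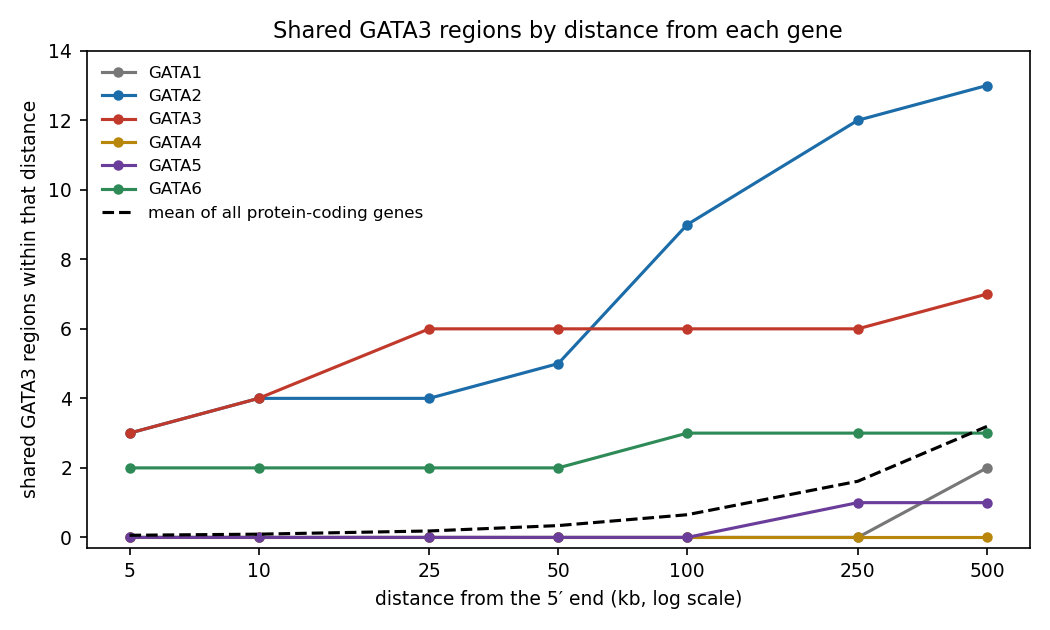
Number of shared GATA3 regions within 5 to 500 kb of the 5′ end of each GATA factor gene (log distance axis), with the mean of all protein-coding genes dashed. GATA3 reached 6 within 25 kb and stayed at 6 to 250 kb, whereas GATA2 rose from 4 at 25 kb to 9 at 100 kb and 12 at 250 kb, and GATA6 stayed at 2 to 50 kb and at 3 from 100 kb. The GATA2 regions between 100 and 250 kb were nearer to other protein-coding genes.

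The profiles differed in their reach. All 6 regions of GATA3 lay within 25 kb of the 5′ end and the count did not change out to 250 kb. GATA2 kept 4 within 25 kb, 5 within 50 kb, 9 within 100 kb and 12 within 250 kb. Its regions between 100 and 250 kb were nearer to other protein-coding genes, RPN1 and RAB7A, and distance alone does not assign them to GATA2. Upstream and downstream, GATA2 had 6 and 3, GATA3 had 2 and 4, and GATA6 had 2 and 1. From the canonical start of GATA3 the split was 5 upstream and 1 downstream, so its side depends on the start that is used. GATA1 reached 2 and GATA5 reached 1 within 500 kb, where the mean of all genes was 3.19, and GATA4 stayed at 0.

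**Figure D3:**
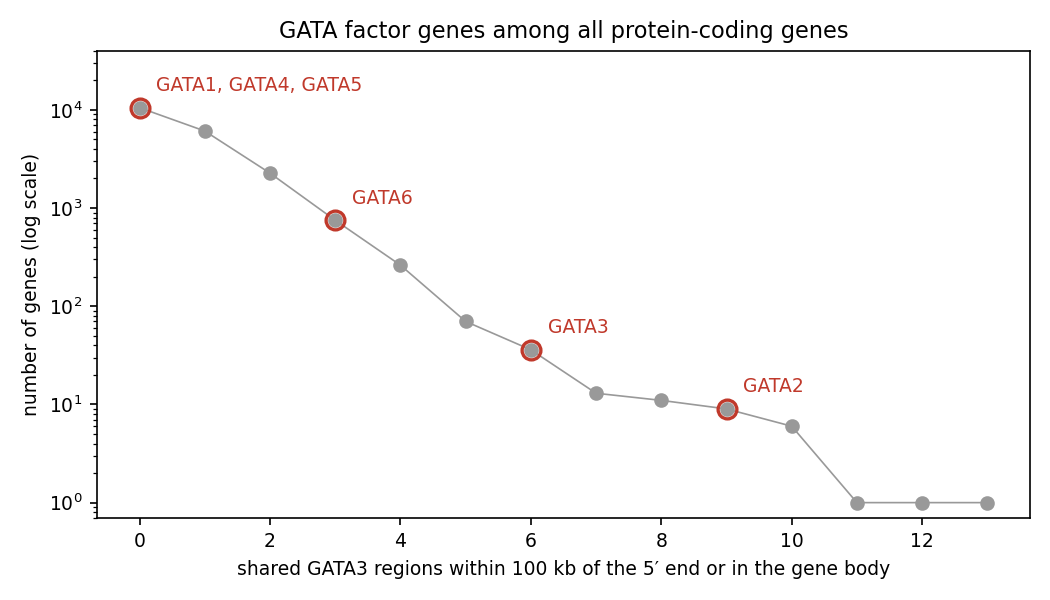
Number of protein-coding genes (log axis) with each count of shared GATA3 regions within 100 kb of the 5′ end or in the gene body, with the GATA factor genes ringed. GATA1, GATA4 and GATA5 stand with the 10519 genes at 0, GATA6 with 751 genes at 3, GATA3 with 36 genes at 6 and GATA2 with 9 genes at 9.

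Positions at the GATA genes were often found in both replicates. Of the 22 positions of replicate 1, 18 were shared (81.8%, exact 95% CI 59.7 to 94.8), against 49.6% of all its positions. Of the 18 positions of replicate 2, all were shared (100%, exact 95% CI 81.5 to 100), against 71.5% of all. The intervals cover counting error only, and neighbouring regions of 1 gene are not independent. The paired positions were a median of 21 bp apart at the GATA genes, from 3 to 65 bp, close to the median of 23 bp over all shared regions.

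The motif content of the 18 regions was near that of all shared regions. A WGATAR within the 200 bp window was found in 15 of 18 (83.3%, exact 95% CI 58.6 to 96.4) against 82.0% of all. The 3 without it were regions 3 and 7 of GATA2 and region 3 of GATA3. AGATAA was found in 12 of 18 (66.7%, CI 41.0 to 86.7) against 51.6%, and 2 WGATAR within 20 bp of each other in 5 of 18 (27.8%, CI 9.69 to 53.5) against 13.3%. Both intervals include the share of all regions. GTCTG was found in 6 of 18 (33.3%, CI 13.3 to 59.0) against 36.1%. The octamer ATGCAAAT of POU factors such as POU5F1 was found in 0 of 18, with an upper limit of 18.5%, against 5.10%.

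Among the 26 WGATAR sites of the 18 regions, 15 were AGATAA (57.7%), 7 were AGATAG (26.9%), 3 were TGATAA (11.5%) and 1 was TGATAG (3.85%). Over all shared regions the shares were 48.3%, 18.3%, 26.0% and 7.43%. At GATA3 each of the 5 regions with a site has an AGATAA, and none of its 6 sites begins with T. Of the 15 AGATAA, 9 were followed by G (60.0%), against 46.6% of all, a count made after the sites had been seen. The sites were as dense as elsewhere, with 1.44 per region against 1.31, and the nearest site was a median of 14.5 bp from the region centre, against 18 bp. Whether a deposited position is the summit or the middle of a peak is not stated, and all distances to motifs rest on it.

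**Figure D4:**
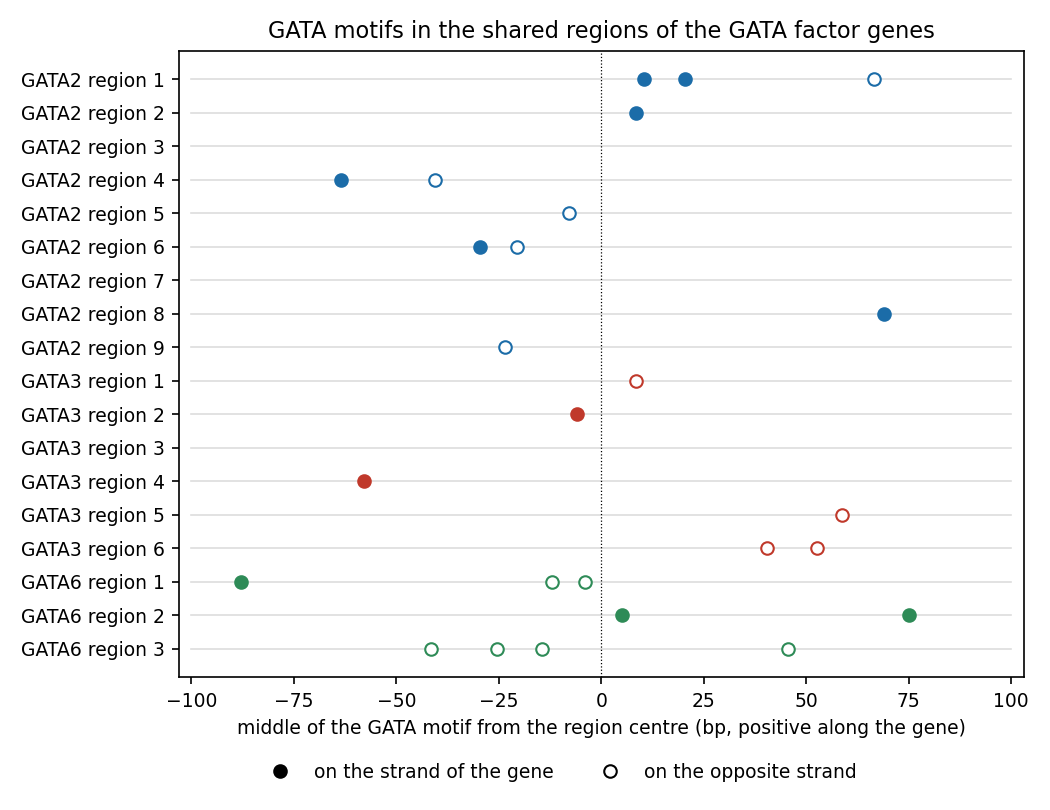
Distance of each WGATAR motif from the centre of its shared region in bp along the gene, for the 18 regions of GATA2, GATA3 and GATA6; filled circles are on the strand of the gene and open circles on the other. Of the 26 motifs, 4 stand in GATA6 region 3, all open, and GATA2 regions 3 and 7 and GATA3 region 3 have none.

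Genes outside the family were counted by the same rule. Of 9 other genes that encode GATA-type zinc fingers, 6 had a shared region, with a median of 1. MTA2, a subunit of the NuRD corepressor complex, had 5, of which the nearest lay 10.2 kb from its 5′ end. MTA3 had 3. TRPS1, a repressor that binds GATA sites, and RERE had 2 each, GATAD2B and MTA1 had 1 each, and GATAD1, GATAD2A and ZGLP1 had 0. Of 6 genes for partners of GATA factors, 5 had a shared region. ZFPM1 and ZFPM2, which encode the FOG cofactors, had 2 each, and TAL1 and LDB1, members of the blood GATA complex, had 1 each. LMO2, of the same complex, had 0. ZFPM2 and TRPS1 are 1214 and 401 kb long, and neither had a shared region within 100 kb of its 5′ end. RUNX1, a blood transcription factor, had 9, of which 3 lay within 100 kb of its 5′ end, in a gene 1217 kb long. The share of 47.5% over all genes is the measure for these counts, and none was tested.

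The genes most like GATA3 and GATA2 were sought by the number of shared regions in 8 bins of 25 kb around the 5′ end, on other chromosomes, with the Euclidean distance between the counts as the measure. EEF1G, a translation elongation factor gene, was nearest to GATA3 at a distance of 1.73 with 5 regions. TPM1 and SLC3A2 followed at 2.24 with 3 each, a distance that 11 genes shared. TXLNB was nearest to GATA2 at 2.24 with 4 regions, followed by H3-5 and NBPF15 at 2.45 with 5 and 7. SLC3A2, EEF1G and MTA2 lie on the same chromosome, 11. By the rule a shared region counts at every gene within reach. Whether the counts of these genes rest on the same regions was not examined. The likeness is in the counts of peaks only.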

How the data were processed

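GATA3 ChIP-seq of H1 hESC after 6 h of BMP4 was available as 1 peak list for each of 2 replicates. Per the study's methods and the labels, the authors trimmed reads with cutadapt, mapped them on hg38 with bowtie, used Picard against duplicates and called peaks of each replicate over input with MACS2. Tool versions are not given in the sources used here. The deposited values are neither counts nor scores but base positions, 1 per peak, with a gene name and no width or height. Whether a position is a summit or a midpoint, and whether bases were counted from 0 or 1, is not stated, and positions were read as 1-based. The lists differ in length from the peak numbers in the study's methods. The depth of each replicate could not be derived from these files, and only the number of positions limits the precision. Of 18545 and 12870 lines, repeated positions were counted a single time (18538 and 12865 left), and positions outside the 24 chromosomes were left out (18456 and 12782 left).

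Positions of the replicates within 100 bp were joined, and genes, introns and starts were taken from GENCODE release 44. Motifs were counted on both strands in 200 bp around each centre. Shares have exact (Clopper-Pearson) 95% intervals. No test was run. Values were computed with pysam 0.24.0, numpy 2.4.6 and scipy 1.17.1 under Python 3.11.15, and plots were made with matplotlib 3.10.9. The joining, gene counts and motif search were tested on simulated data.

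The genes named were the 6 members, neighbours at their positions, 2 lists of related genes and the 3 genes nearest in profile to GATA3 and GATA2. Members and lists were chosen with earlier results of these data known. Counts within 10 kb from other starts or single replicates, the composite with WGATAR and the base after AGATAA were added after seeing the data. Other distances, windows and starts were tried, and each replicate was used alone. A RefSeq promoter table was not used here, because its starts for GATA2 and GATA3 were internal to the genes.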

Additional observations from a re-analysis of the deposited data

How the results depend on the processing

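The order of the leading genes and the ranks depended on the settings. Joining positions at 50, 250 or 500 bp, or using the canonical start for the whole locus, moved no count at a member by more than 1.5 times. Over these settings the share of genes with as many or more ranged from 0.0549% to 0.130% for GATA2, from 0.225% to 0.514% for GATA3 and from 3.69% to 7.49% for GATA6. With 50 kb around the 5′ end the order of GATA2 and GATA3 turned, with 5 shared regions at GATA2 (0.469% of protein-coding genes had as many or more) and 6 at GATA3 (0.260%). With 250 kb, GATA5 had 1, and the share of genes with as many or more was 2.27% for GATA3, 75.8% for GATA5 and 23.5% for GATA6. With all positions of a single replicate in place of shared regions, the share ranged from 0.235% to 0.579% for GATA2, from 1.01% to 1.47% for GATA3, from 20.3% to 100% for GATA4 and from 11.2% to 20.3% for GATA6, and GATA4 had 0 to 3 positions. The 3 at GATA4 are of replicate 1 alone. No paired analysis was possible because there was 1 group and no test. The limits are 2 replicates of 1 condition, no peak heights or widths, depth not known for each replicate, and windows of sequence that describe letters, not occupancy of a site.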
